A study of Oryza sativa Japonica Group with 27 samples.

Results

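Lowering a temperature of reverse transcription was examined in rice with the low RT denaturation library and the low RT reaction library, each set against the pair of Structure-seq2 libraries made without DMS (replicates 1 and 2). Each of these 4 libraries was read with a standard and with a custom sequencing primer, which gives 8 of the 27 samples of the series, 4 of them at a lower temperature. In the low RT denaturation library the RNA was denatured at 65 °C without salt and reverse transcribed at 55 °C. In the low RT reaction library it was denatured at 90 °C with salt and reverse transcribed at 50 °C. Structure-seq2 replicates 1 and 2 were denatured at 90 °C with salt and reverse transcribed at 55 °C. For all 4 libraries, shoots of the japonica cultivar Nipponbare were taken at 14 days and their RNA selected for poly(A), without dimethyl sulfate (DMS), without biotin, with purification on polyacrylamide gels, ligation by T4 DNA ligase and amplification with Q5. Temperature and salt were changed together in the low RT denaturation library, so their parts cannot be told apart. Each lower temperature has 1 library, and nothing in the labels says whether replicates 1 and 2 came from separate plants, so the spread between them may be technical.

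Structure-seq2 maps RNA structure from the positions at which reverse transcriptase stops. The RNA is first heated so that it unfolds and the primers can anneal, and the enzyme, here SuperScript III, then copies it at a raised temperature at which fewer stable folds remain to halt it. A step at which some transcripts are copied, ligated or amplified less well than others also changes how many reads each transcript contributes, and that contribution is what was measured here, as the count of reads per locus. The files hold no stop positions, so stops at natural folds were not analysed here.

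With the standard primer, the low RT denaturation library held 230147 counts and the low RT reaction library 218361, and their custom-primer readings held 272353 and 270587. Replicate 1 held 124680 counts and replicate 2 held 275482, and their custom-primer readings 126736 and 333759. One count was therefore worth 4.48 CPM (the count scaled to a common library total) in the low RT denaturation library, 4.89 in the low RT reaction library, 8.09 in replicate 1 and 3.72 in replicate 2 of the standard-primer table. Thinned to 124680 counts, 13354 loci had a count at low RT denaturation and 13425 at low RT reaction with the standard primer, against 13733 and 13660 in replicates 1 and 2. The custom primer gave 14099 and 14237 loci, against 14430 and 14191, so the order of the libraries was not the same with both primers. The 10 most counted loci took 10.7% of the counts in each lower-temperature library with the standard primer, against 9.71% and 10.3% in replicates 1 and 2. With the custom primer they took 10.2% at low RT denaturation and 9.59% at low RT reaction, against 9.32% and 9.93%, so low RT reaction then lay between the replicates. With 2 libraries against 2 the smallest two-sided p of an exact permutation test is 0.333, so that test could not pass for these library-wide values, which are given as a description.

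The first question was whether any locus shifted in both lower-temperature libraries together. Tested as a pair against replicates 1 and 2 (edgeR quasi-likelihood test, Benjamini-Hochberg adjusted p under 0.05), none of 4099 loci passed with the standard primer (0%). At an unadjusted p under 0.05 there were 75 loci higher and 110 lower, and the lowest adjusted p was 0.153. In the custom-primer table, 11 loci of 5190 passed (0.212%), all lower at the lower temperatures. Their log2 changes ran from -4.46 to -1.58 and their edgeR adjusted p from 1.66e-06 to 0.0290. In the standard-primer table, a second reading of the same 4 libraries and not a further replicate, all 11 had a log2 change below 0. DESeq2 called 2 loci with the standard primer, both lower, and with the custom primer 1 locus higher and 14 lower, of which 10 were also called by edgeR.

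Each lower temperature was then tested alone, with the spread taken from the replicated kinds of library in the series. No locus of 6628 passed in the standard-primer table and none of 7777 in the custom-primer table (0% each) for low RT denaturation, for low RT reaction, or for the difference between them. The lowest edgeR adjusted p was 0.391 and 0.325 for low RT denaturation with the standard and the custom primer, 1 and 0.187 for low RT reaction, and 0.529 and 0.991 for their difference. At an unadjusted p under 0.05, low RT denaturation had 36 loci higher and 154 lower with the standard primer and 37 higher and 55 lower with the custom primer. Low RT reaction had 21 higher and 85 lower, and 38 higher and 81 lower. The difference, low RT denaturation minus low RT reaction, had 48 above 0 and 160 below 0, and 63 above 0 and 42 below 0. DESeq2 called 21 loci for low RT denaturation, 1 for low RT reaction and 14 for the difference in the standard-primer table. No locus is thus shown by edgeR to differ between the lower temperatures, and the loci described next were picked by size, with no test in the picking.

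By that size rule a locus moved in a library when its level lay at least 2-fold above the higher, or below the lower, of replicates 1 and 2 in both primer tables. It was applied to the 1455 loci with a mean of at least 20 counts over the 4 libraries in each table. Low RT denaturation moved 38 loci (2.61%), 18 higher and 20 lower, and low RT reaction moved 48 (3.3%), 15 higher and 33 lower. For comparison, 2 libraries without DMS at the usual 90 °C and 55 °C were put through the same rule. The biotin only library, in which biotin was added and gels kept, moved 29 loci (1.99%), 19 higher and 10 lower. The Ex Taq library, amplified with another polymerase, moved 72 (4.95%), 19 higher and 53 lower. Both lower-temperature libraries thus had more moved loci than biotin only and fewer than Ex Taq, with 1 library behind each count. All 4 of these comparisons share replicates 1 and 2.

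**Figure D1:**
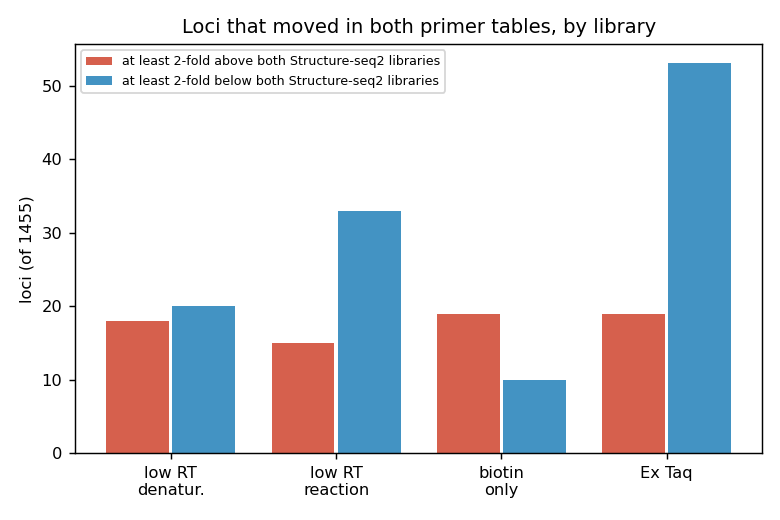
Number of loci, of 1455, at least 2-fold above (red) or below (blue) both Structure-seq2 libraries in both primer tables, for the low RT denaturation, low RT reaction, biotin only and Ex Taq libraries. The lower-temperature libraries moved 38 and 48 loci, between the 29 of biotin only and the 72 of Ex Taq.

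The typical distance between libraries gives the scale of these moves. Over the 1455 loci the median absolute log2 difference between low RT denaturation and low RT reaction was 0.46 in the standard-primer table and 0.43 in the custom-primer table, against 0.32 and 0.23 between replicates 1 and 2. Levels at least 2-fold apart between the lower-temperature libraries were found at 255 loci (17.5%) and 196 loci (13.5%), against 97 (6.67%) and 23 (1.58%) between the replicates. No locus had replicates 1 and 2 at least 2-fold apart the same way in both tables. Low RT denaturation lay nearer to either replicate than to low RT reaction in both tables, with medians from 0.33 to 0.43. Low RT reaction lay about as far from the replicates as from low RT denaturation, with medians from 0.42 to 0.49. The widest gap of the 6 libraries was that between low RT reaction and Ex Taq, at 0.62 and 0.59.

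Of the moved loci, 9 lay lower in both lower-temperature libraries (0.619%) and none lay higher in both (0%). Alone in low RT denaturation, with low RT reaction within 1.5-fold of the mean of replicates 1 and 2, were 6 higher loci (0.412%) and 2 lower ones (0.137%). Alone in low RT reaction, by the same measure, were 8 higher loci (0.55%) and 13 lower ones (0.893%). One locus moved higher at low RT denaturation and lower at low RT reaction. The remaining 20 loci moved by low RT denaturation and 17 moved by low RT reaction had the other library outside the 1.5-fold band without reaching the 2-fold distance in both tables, and they belong to neither list. With size factors from another method (RLE) the loci moved the same way in both numbered 1 higher and 8 lower, and those of low RT denaturation alone 7 higher and 0 lower. Under those factors 8 of the 9 shared loci met the rule.

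**Figure D2:**
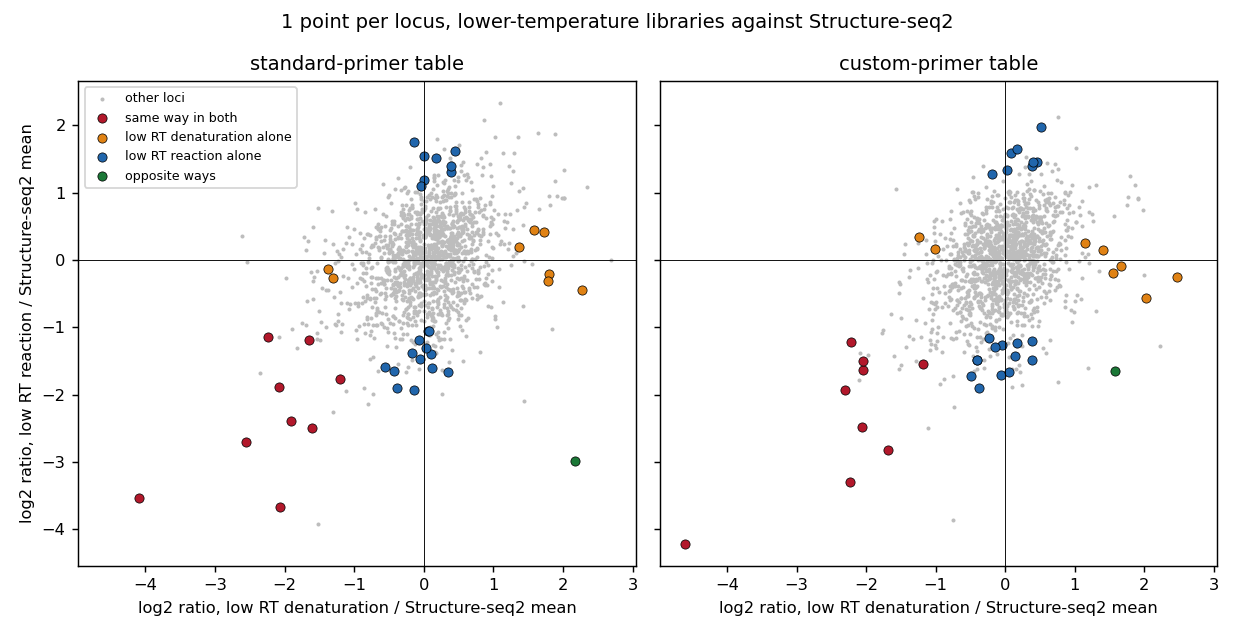
Log2 ratio of low RT denaturation (x axis) and of low RT reaction (y axis) to the mean of Structure-seq2 replicates 1 and 2, 1 point per locus for 1455 loci, standard-primer table left and custom-primer table right. Both axes share the same replicates. Red marks the 9 loci lower in both, orange and blue the loci moved at low RT denaturation alone and low RT reaction alone, green the locus that moved opposite ways, and the upper right corner holds no red point.

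At the 9 loci lower in both libraries the summed level, with 0.5 added to each locus's count in this and the other sums over loci, was 1490.2 CPM at low RT denaturation and 1319 CPM at low RT reaction, against 7185 and 6662 CPM in replicates 1 and 2 (standard primer). The custom-primer sums were 2362 and 2455 CPM, against 11669 and 10361 CPM. The median log2 ratio to the replicates was -2.07 at low RT denaturation and -2.39 at low RT reaction with the standard primer, and -2.05 and -1.93 in the custom-primer table. Over all 1455 loci the same medians were 0.09 and 0.05, and 0.00 and 0.04. The rule fixes that these loci lie low in both, so the ratios describe the list and support nothing.

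OS06T0693200 came first of the 9 by its smallest ratio. With the standard primer it had 14 counts (62.7 CPM) at low RT denaturation and 19 (93.0 CPM) at low RT reaction, against 131 (1059 CPM) and 311 (1157 CPM) in replicates 1 and 2. Read with the custom primer it had 20 counts (76.0 CPM) and 25 (99.9 CPM), against 257 (2113 CPM) and 546 (1685 CPM). Both lower-temperature libraries were thus far below both replicates in either table, where the rule requires at least 2-fold. The log2 change of the pair was -3.89 ± 0.36 (SE) with an edgeR adjusted p of 0.153 with the standard primer, and -4.46 ± 0.35 with an adjusted p of 1.66e-06 with the custom primer, so it fell by the test in the custom-primer table and missed the threshold in the standard-primer table. Without the low RT denaturation library the standard-primer adjusted p was 0.0347, and without the low RT reaction library it was 0.0164, where the spread comes from replicates 1 and 2 alone and the lone library is assumed to vary like them. With the spread from all replicated kinds, the edgeR adjusted p was 0.605 for low RT denaturation and 1 for low RT reaction. Over all alternatives it ran from 2.84e-09 with no filter to 0.999 with biotin only and Ex Taq added to the replicates. The locus was also low at the usual temperatures, with 88 counts (330.3 CPM) in the biotin only library and 28 (98.7 CPM) in the Ex Taq library with the standard primer.

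OS01T0511600 was the next. It had 87 counts (389.9 CPM) at low RT denaturation and 72 (352.3 CPM) at low RT reaction, against 303 (2450.4 CPM) and 586 (2179 CPM) in replicates 1 and 2 with the standard primer. The custom-primer counts were 138 and 170, against 351 and 757. The groups did not overlap in CPM in either table, as the rule requires. The log2 change was -2.71 ± 0.28 (SE; edgeR adjusted p = 0.153) with the standard primer and -2.15 ± 0.30 (adjusted p = 0.00199) with the custom primer. Left with low RT reaction or low RT denaturation alone, the same fit gave adjusted p of 0.0347 and 0.0351, and with the spread from all replicated kinds they were 1 for low RT reaction and 0.409 for low RT denaturation. Over all alternatives it ran from 1.20e-06 by DESeq2 to 0.701 with biotin only and Ex Taq added. Here the comparison libraries went apart, with 1450 counts (5443 CPM) for biotin only, above both replicates, and 274 (966.2 CPM) for Ex Taq, below both.

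As a list the 9 loci were also low in the Ex Taq library, whose temperatures were not lowered. Ex Taq had a median log2 ratio of -2.29 with the standard primer and -2.65 with the custom primer, with each of the 9 loci below 0 in both tables. Biotin only had medians of -0.57 and -0.64, with 6 loci below 0 and 3 above in each table. With the standard primer the median was below 0 in every other library too. It ran from -1.61 in replicate 1 of the biotin variation with DMS to -0.50 in the library purified on agarose. With Circligase it was -1.17, and all 9 loci lay below both replicates. In some of these libraries single loci lay above both replicates. Summed, the 9 loci stood at 2149 CPM in Ex Taq and 9146 CPM in biotin only with the standard primer. When the biotin only and Ex Taq libraries were added to replicates 1 and 2 as libraries to be exceeded, 1 of the 9 loci still lay below all 4. Low levels of these loci were thus also measured where no temperature was lowered.

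The limit of the rule is 1 log2 unit. The member nearest to it lay 1.02 log2 units below the lower replicate in its closest reading and the nearest locus outside it 0.97, while 25 loci lay between 0.5 and 1. On the higher side the nearest locus missed at 0.97, and 12 lay between 0.5 and 1.

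Among the loci of low RT denaturation alone, OS07T0512200 came first by its distance from low RT reaction. With the standard primer it had 603 counts (2702 CPM) at low RT denaturation, against 57 (461.0 CPM) and 181 (673.1 CPM) in replicates 1 and 2, while low RT reaction had 84 (411.1 CPM). Its custom-primer reading had 1296 counts at low RT denaturation, against 105 and 294, and 187 at low RT reaction. Low RT reaction stayed by the replicates and low RT denaturation stood well above them in both tables, an order that the rule fixes. The log2 change of low RT denaturation was 2.24 ± 0.54 (SE; edgeR adjusted p = 0.409) and 2.47 ± 0.51 (adjusted p = 0.325), and its difference from low RT reaction was 2.71 ± 0.69 (adjusted p = 0.529) and 2.72 ± 0.66 (adjusted p = 0.991), so no edgeR test passed. Over the alternatives the adjusted p of the first ran from 0.0213 to 1 with the standard primer, the lowest by DESeq2. In biotin only and Ex Taq, at the usual temperatures, the locus was higher still, with 827 counts (3104 CPM) and 990 (3491 CPM) with the standard primer. The remaining libraries of the series ran from 283.1 CPM with Circligase to 841.5 CPM in replicate 1 of the biotin variation without DMS. The latter had 2604 CPM with the custom primer.

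OS02T0111700 had 134 counts (600.5 CPM) at low RT denaturation and 30 (146.8 CPM) at low RT reaction, against 17 (137.5 CPM) and 56 (208.3 CPM) in replicates 1 and 2 with the standard primer. With the custom primer it had 212 and 33 counts, against 18 and 83. Of the lower-temperature libraries, low RT denaturation alone lay above both replicates, as its list requires. Biotin only (125 counts, 469.2 CPM) and Ex Taq (82 counts, 289.1 CPM) again lay above both replicates and below low RT denaturation. So did the library ligated with Circligase (56 counts, 417.3 CPM) and replicates 1 and 2 of the standard protocol with DMS (304.6 and 281.8 CPM). The same held for replicate 2 of the biotin variation without DMS (325.9 CPM) and its replicates 1 and 2 with DMS (383.0 and 215.8 CPM). Below both Structure-seq2 replicates were replicate 1 of the biotin variation without DMS (0 counts) and the agarose library (105.9 CPM). The log2 change of 1.78 ± 0.96 (SE) had an edgeR adjusted p of 1 with the standard primer.

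Over the 6 higher loci of low RT denaturation alone, the median log2 ratio was 1.76 and 1.61 with the standard and the custom primer. Biotin only had medians of 1.25 and 0.96, and Ex Taq 0.77 and 0.74, with all 6 loci above 0 in Ex Taq in both tables. In biotin only all 6 were above 0 with the standard primer and 5 of 6 with the custom primer. Low RT denaturation was nonetheless the highest of the 6 libraries compared at 5 of the 6 loci in both tables. The rule fixes that order against the replicates and low RT reaction, but not against biotin only and Ex Taq. With biotin only and Ex Taq added as libraries to be exceeded, none of the 8 loci of low RT denaturation alone met the 2-fold rule.

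The 2 lower loci of low RT denaturation alone were thinly counted. OS09T0115900 had 11 counts at low RT denaturation and 21 at low RT reaction with the standard primer, against 16 and 32 in replicates 1 and 2, which are 49.3 and 102.8 CPM against 129.4 and 119.0 CPM. It had fewer still in Ex Taq, at 8 counts (28.2 CPM). OS02T0608900 had 15 counts (67.2 CPM) at low RT denaturation and 33 (161.5 CPM) at low RT reaction, against 26 (210.3 CPM) and 40 (148.8 CPM). Both had an edgeR adjusted p of 1 with the standard primer, and neither met the rule under RLE factors or under a minimum mean of 50 counts.

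**Figure D3:**
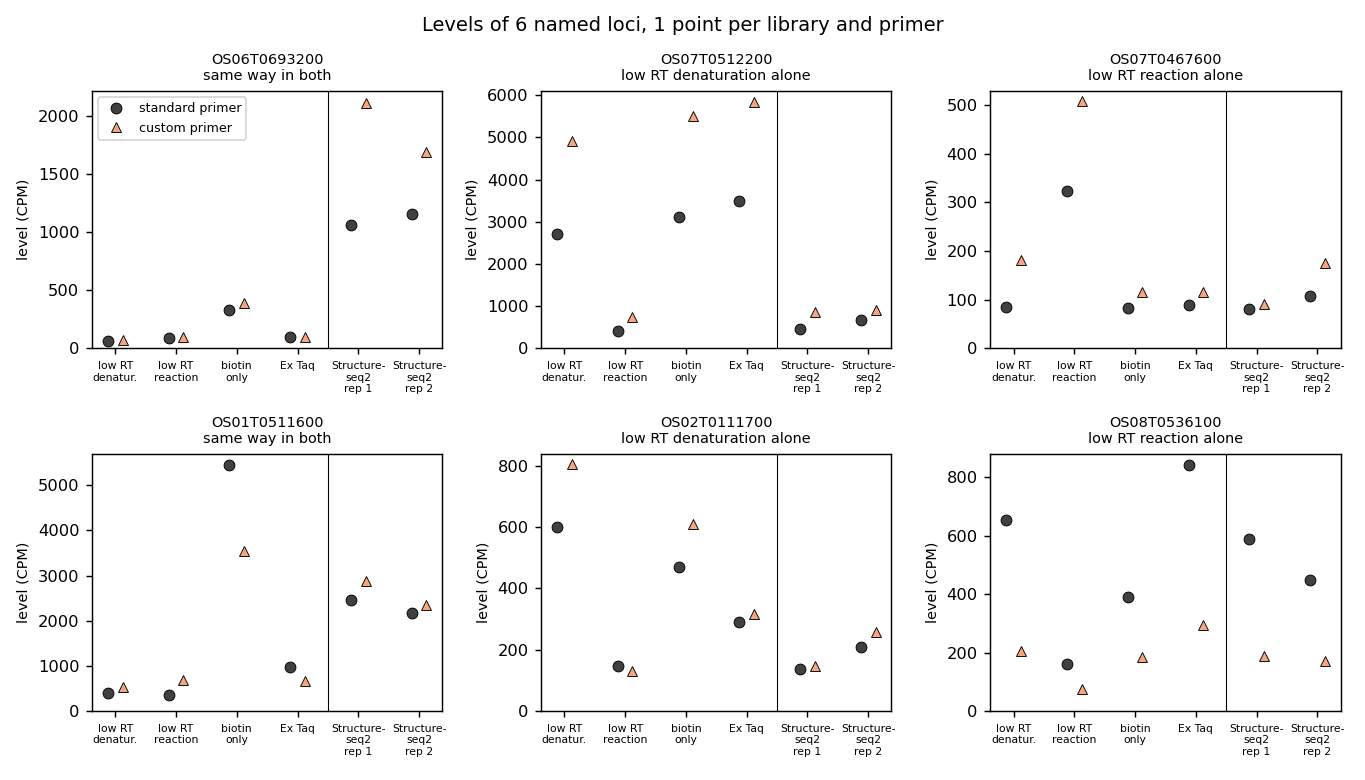
Level in CPM (linear axis from 0) of 6 named loci in the low RT denaturation, low RT reaction, biotin only and Ex Taq libraries and, right of the line, Structure-seq2 replicates 1 and 2, with circles for the standard and triangles for the custom primer, 1 point per library. In the left column the lower-temperature libraries lie under both replicates, in the middle column low RT denaturation lies above them with biotin only and Ex Taq, and in the right column low RT reaction lies apart from the other 5 libraries.

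At each of the 21 loci of low RT reaction alone, 8 higher and 13 lower, low RT reaction was the outermost of the 6 libraries in both tables, beyond biotin only and Ex Taq as well as the replicates. The rule fixes that order against the replicates and low RT denaturation, while the biotin only and Ex Taq values took no part in choosing the loci. Some libraries outside these 6 also departed from the replicates, and in the biotin variation without DMS (standard primer) 5 of the 13 lower loci lay at least 2-fold below both in replicate 1, with a median log2 ratio of -0.91, and 4 in replicate 2, with a median of -0.03. With biotin only and Ex Taq added as libraries to be exceeded, 14 of the 21 loci stayed in their list. Membership also needs low RT denaturation within 1.5-fold of the mean of replicates 1 and 2, biotin only and Ex Taq. A locus can thus drop out with its 2-fold distance kept. Of the 9 loci lower in both, whose list has no such condition, 1 stayed, and of the 8 of low RT denaturation alone none. The difference between these shares was not tested.

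The 8 higher loci summed to 17764 CPM at low RT reaction with the standard primer and to 8125 CPM at low RT denaturation, against 6049 and 6679 CPM in replicates 1 and 2. Biotin only stood at 6456 CPM and Ex Taq at 5212 CPM. The custom primer gave 18159 and 8042 CPM, against 6708 and 6893 CPM. OS07T0467600 had 66 counts (323.0 CPM) at low RT reaction and 19 (85.2 CPM) at low RT denaturation, against 10 (80.9 CPM) and 29 (107.8 CPM) in the replicates, and 22 (82.6 CPM) and 25 (88.2 CPM) in biotin only and Ex Taq. With the standard primer low RT reaction stood alone above 5 libraries that lay close together. With the custom primer this locus had 507.4 CPM at low RT reaction. The other 5 libraries then ran from 90.4 CPM in replicate 1 to 182.4 CPM at low RT denaturation. The log2 change was 1.75 ± 1.08 (SE; edgeR adjusted p = 1) with the standard primer and 1.86 ± 0.74 (adjusted p = 0.998) with the custom primer. OS07T0142100 had 242 counts (1184 CPM) at low RT reaction and 90 (403.4 CPM) at low RT denaturation, against 60 (485.2 CPM) and 90 (334.7 CPM). At the usual temperatures it also lay above both replicates with Circligase (849.4 CPM, standard primer). The other libraries ran from 0 CPM in replicate 2 of the biotin variation without DMS to 335.0 CPM in Ex Taq.

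The 13 lower loci summed to 1378 CPM at low RT reaction and to 3664 CPM at low RT denaturation with the standard primer, against 3692 and 3903 CPM in replicates 1 and 2. Biotin only and Ex Taq stood at 4304 and 4685 CPM. The median log2 ratio was -1.47 and -1.48 for low RT reaction in the 2 tables, -0.05 and -0.06 for low RT denaturation, -0.09 and 0.07 for biotin only, and 0.17 and 0.17 for Ex Taq. OS08T0536100 had 33 counts (161.5 CPM) at low RT reaction and 146 (654.3 CPM) at low RT denaturation, against 73 (590.4 CPM) and 121 (450.0 CPM) in the replicates. The log2 change was -1.68 ± 0.76 (SE; edgeR adjusted p = 1) with the standard primer and -1.24 ± 0.76 (adjusted p = 0.998) with the custom primer. OS10T0510400 had 12 counts (58.7 CPM) at low RT reaction and 36 (161.3 CPM) at low RT denaturation, against 22 (177.9 CPM) and 42 (156.2 CPM). Low RT reaction was below the other 5 of these 6 libraries at both loci, and no test passed. Elsewhere in the series lower levels occurred at the usual temperatures, with 28.3 CPM for OS10T0510400 in replicate 2 of the biotin variation without DMS and 81.7 CPM for OS08T0536100 in replicate 1 of the biotin variation with DMS.

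**Figure D4:**
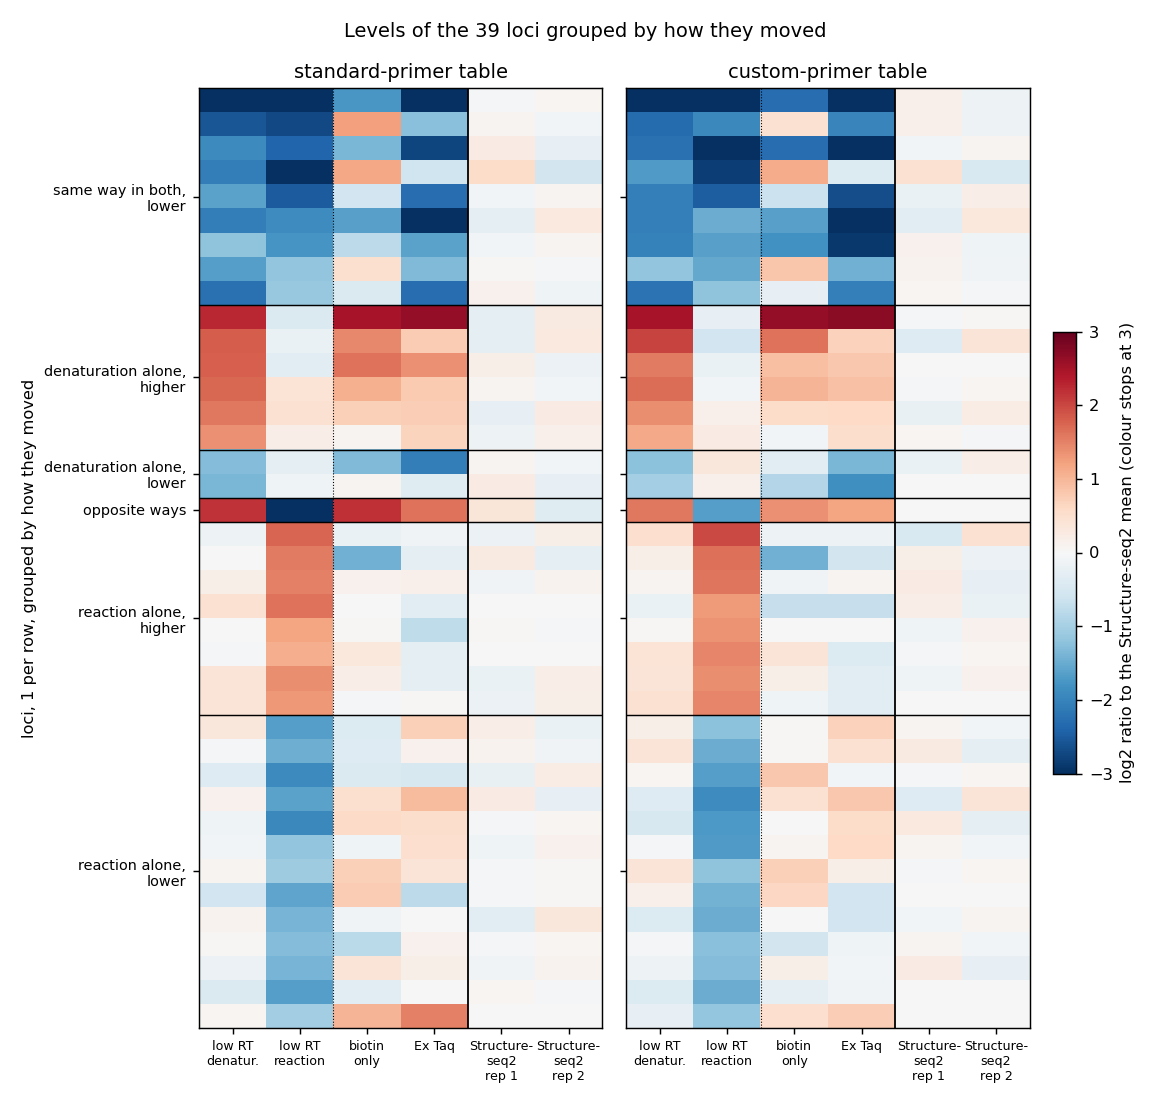
Log2 ratio to the mean of Structure-seq2 replicates 1 and 2 (colour scale cut at 3) for each locus, 1 per row, grouped by how it moved, in the low RT denaturation, low RT reaction, biotin only and Ex Taq libraries and the replicates, standard-primer table left and custom-primer table right. In the 9 loci lower in both, Ex Taq is also below 0, while in the 8 higher and 13 lower loci of low RT reaction alone the colour of that library stands apart.

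The identifiers allow a pair of properties to be compared that the rule did not use, transcripts per locus and chromosome. Loci listed with 1 transcript made up 7 of the 9 loci lower in both, 5 of the 8 of low RT denaturation alone and 11 of the 21 of low RT reaction alone, beside 41.4% of all 1455 loci. The 9, 8 and 21 loci lay on 6, 5 and 9 of the 12 chromosomes that the identifiers name. The rule did use the mean count, through its minimum of 20, and the median of that mean was 70.8, 62.8 and 50.0 in these lists, beside 40.3 over all 1455 loci. These are counts of few loci and were not tested.

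A further group of loci was low in several libraries of the standard-primer table, low RT denaturation among them. Of 1757 loci there that averaged at least 20 counts, 79 were counted at least 8-fold more with the standard than with the custom primer over the 4 libraries. As low RT reaction and the replicates count in that choice, a locus near 0 at low RT denaturation could enter through them. The median level of the 79 loci with the standard primer was 17.9 CPM at low RT denaturation and 278.9 CPM at low RT reaction, against 372.0 and 122.7 CPM in replicates 1 and 2. Low RT denaturation lay at least 2-fold below both replicates at 51 of the 79 loci, and low RT reaction at 1. Over the 1455 loci of the size rule, with the standard primer alone, these shares were 3.78% and 4.47%. Biotin only lay that low at 48 of the 79 loci and Ex Taq at 25, beside 1.99% and 6.53% of the 1455. Their medians over the 79 loci were 78.8 and 112.8 CPM. The 1455 loci also needed a mean of 20 counts with the custom primer, and 1454 of them remained when every locus of at least 8-fold excess was left out. They thus hold almost none of the 79 and are not the 1757 from which the 79 were drawn, for which these shares were not taken. Other kinds of library went lower or nearly as low, with medians of 10.2 and 7.19 CPM and 28 and 38 loci at 0 in the biotin variation with DMS, and 22.4 CPM and 15 loci at 0 with Circligase. The 79 loci took 0.829% of the counts at low RT denaturation and 2.5% at low RT reaction, against 3.5% and 1.15% in the replicates, which thus differ from each other by more than low RT denaturation differs from replicate 2.

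At 19 of the 79 loci low RT denaturation had no count with the standard primer, while low RT reaction and both replicates had counts at all 19. With a floor of 3 counts in the low RT denaturation library these levels were at least 9.52-fold to 77.6-fold lower than the mean of the replicates, with a median bound of 18.9-fold. Low RT reaction was within 2-fold of the mean of the replicates at all 19. OS03T0441400 had 0 counts at low RT denaturation and 222 at low RT reaction, against 189 and 150 in replicates 1 and 2, with 45 in biotin only and 84 in Ex Taq. OS11T0581700 had 0 and 138, against 139 and 97, with 24 and 50. These loci were chosen for their zeros after the values were seen. The edgeR adjusted p of low RT denaturation was 0.409 for OS03T0441400 and 0.391 for OS11T0581700, and that of the difference from low RT reaction was 0.529 for both. For 16 of the 19 loci the custom-primer table gave at most 3 counts over the 4 libraries together, so the difference could not be read a second time. With every locus of at least 8-fold excess left out, whatever its count and not the 79 alone, the standard-primer test of both lower temperatures called 2 loci, both lower.

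**Figure D5:**
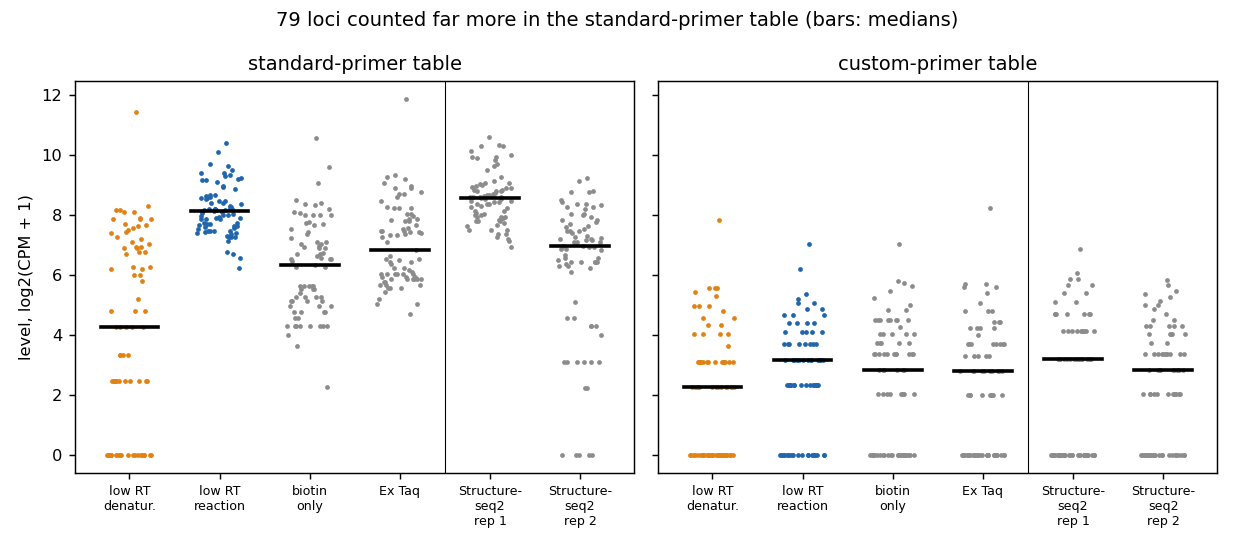
Level as log2(CPM + 1) of the 79 loci counted at least 8-fold more with the standard primer, 1 point per locus and library, bars at the median, standard-primer table left and custom-primer table right. With the standard primer low RT denaturation has the lowest median of the 6 libraries plotted, 17.9 CPM, and 19 points at 0, with 5 at 0 in replicate 2, while low RT reaction lies between replicates 1 and 2.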

How the data were processed

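Per the labels' protocols, shoot RNA was poly(A)-selected, reverse transcribed with SuperScript III, ligated and amplified. The authors deposited whole-number read counts per transcript in 1 table per sequencing primer. Cutadapt and Bowtie2 are named in the submitters' processing notes. Their versions, the build, the annotation and the counting rule were not given in the sources used here. There were 0 columns from samples outside the labels.

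Counts of 42132 transcripts were summed over 35679 loci, by the identifier without its transcript suffix. A letter read with both primers was taken as 1 library (14 in all, 13 with the custom primer). Loci with at least 10 counts in at least 2 libraries entered edgeR 4.0.16 in R 4.3.3, with TMM factors, its quasi-likelihood test and a Benjamini-Hochberg adjusted threshold of 0.05. The pair was fitted on 4 libraries (2 residual degrees of freedom). Each lower temperature alone and their difference came from a single fit of every library, each kind with its own mean (4 residual degrees of freedom from 4 replicated kinds), so a lone library is assumed to vary like those kinds. Standard errors are the log2 change over the square root of F. For the size rule 0.5 was added to each count before scaling to CPM with TMM factors, and it remains in CPM summed over a list, while CPM of single loci and medians of CPM have nothing added. A 0 was given a bound from 3 counts in that library. Counting limits do not cover PCR duplication.

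The alternatives were RLE factors, library totals, no filter, a minimum of 50 counts, transcripts in place of loci, the custom-primer or summed readings, other fits, other folds, DESeq2 1.42.0 and leaving out libraries. The scripts were tested on simulated counts. With so few residual degrees of freedom the tests are weak, and a count of 0 calls does not show that levels did not differ. The loci, lists and alternatives were chosen with earlier results of these data known. Named loci are at most 2 per direction in each list, the same-way list by its smallest ratio and the others by the difference between the lower-temperature libraries. Of the identifiers, 1 matched the gene table at hand, and no sequences were at hand, so gene names, gene lists, tissue markers, GC content and length were not used here. Transcripts that share reads with a near copy are uncertain.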

Additional observations from a re-analysis of the deposited data

Results flagged for a closer look

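OS05T0463600 moved opposite ways in the lower-temperature libraries: each reading of low RT denaturation lay above both Structure-seq2 replicates and each reading of low RT reaction below them. It was named after its values were seen. With the standard primer it had 174 counts at low RT denaturation and 4 at low RT reaction, against 27 and 36 in replicates 1 and 2. With the custom primer it had 93 and 9, against 14 and 38. The log2 difference, low RT denaturation minus low RT reaction, averaged 4.19 over both tables. In the fit of all libraries that difference was 5.27 ± 1.69 (SE; edgeR adjusted p = 0.710) in the standard-primer table and 3.28 ± 0.89 (adjusted p = 0.991) with the custom primer, so it did not pass the threshold. Biotin only and Ex Taq had 212 and 152 counts with the standard primer, and 101 and 91 in the custom-primer table. At the usual temperatures, replicates 1 and 2 of the biotin variation without DMS and replicate 1 with DMS had 0 counts with the standard primer. Their custom-primer counts were 0, 0 and 3. Replicates 1 and 2 of the standard protocol with DMS (528.8 and 296.2 CPM) and the agarose library (282.5 CPM) lay above both Structure-seq2 replicates with the standard primer.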

How the results depend on the processing

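Depth limits single loci, and each lower temperature rests on 1 library. No paired analysis was possible because the low RT denaturation and low RT reaction libraries share fewer than 2 replicate numbers with the Structure-seq2 libraries. RLE factors, library totals and transcripts in place of loci left all 7 counts within 1.5 times of their values. For the pair, where edgeR called 0 loci, no filter gave 32 calls, a minimum of 50 counts 2 and the custom-primer readings 11. Both readings summed gave 1 and DESeq2 2. Leaving out every locus of at least 8-fold standard-primer excess, with no minimum count, gave 2. For low RT denaturation (0), no filter gave 5, DESeq2 21 and leaving out a library 0 to 4, the 4 without replicate 2. For low RT reaction (0), DESeq2 gave 1. For the difference (0), no filter gave 4 and DESeq2 14. The loci moved the same way (9), in low RT denaturation alone (8) and in low RT reaction alone (21) numbered 113, 90 and 114 with no filter and 48, 147 and 136 with both readings summed. With biotin only and Ex Taq as further libraries to exceed they numbered 1, 0 and 16. They numbered 36, 41 and 92 at 1.5-fold, 3, 2 and 1 at 3-fold, 18, 112 and 65 in the standard-primer table alone and 31, 53 and 90 in the custom-primer table alone. Without replicate 1 they were 22, 14 and 34, and without replicate 2 they were 17, 15 and 26. A minimum mean of 50 counts left 10 in low RT reaction alone. Of 132 values of named loci under alternatives, 116 kept their side of the threshold, 16 passed it and 0 reversed. The causes of these shifts were not tested.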
